A study of Mus musculus with 15 samples.

Results

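The 44 genes described here encode proteins of the complement and coagulation systems, with 2 receptors for complement fragments. They were chosen by gene symbol from a list that names recognition proteins, proteases, terminal components, inhibitors, clotting factors and clotting serpins. All 44 were present in each of the 3 deposited tables, out of 26839 genes listed in at least 1 table. The data are bulk RNA sequencing of liver from C57BL/6J males, in 15 libraries that form 5 groups of 3. Every group had received an adeno-associated virus of serotype 8 (AAV8). The chow GFP group carried green fluorescent protein (GFP) under the TBG promoter, which is active in hepatocytes, and ate standard chow for 16 weeks. The NASH GFP group carried the same vector and was given the FPC NASH diet, which produces nonalcoholic steatohepatitis (NASH), with sugar water for 16 weeks. The Activin A group ate the NASH diet for 16 weeks and carried Activin A, a secreted ligand of the TGF-beta family, under the TBG promoter. The scramble and Gpnmb hairpin groups also ate the NASH diet for 16 weeks. They carried a short hairpin RNA under the H1 promoter, which is not restricted to a cell type. The scramble hairpin has no intended target, and the other is against Gpnmb, a transmembrane glycoprotein gene of macrophages. The age of the mice is not given in the labels, and nothing there says whether the 3 libraries within a group stem from different mice. The p-values therefore measure the spread between these libraries, which may be technical.

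Complement is a cascade of plasma proteases that is opened along 3 routes. C1q bound to antibody opens the classical route, mannose-binding lectins open the lectin route, and factor B and factor D drive the alternative route. The routes converge on the cleavage of C3 and then of C5, after which C5b, C6, C7, C8 and C9 assemble a pore in the target membrane. Coagulation is a second protease cascade, which ends with thrombin turning fibrinogen into fibrin, and plasmin later dissolves the clot. Hepatocytes make most circulating complement and clotting proteins. C1q is made mainly by macrophages, properdin by leukocytes, and the receptors for the C3a and C5a fragments sit chiefly on myeloid cells.

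Libraries held between 15276879 and 23467867 counts. Gpnmb, the target of the hairpin, stood at 0.149 to 0.483 CPM (counts scaled to library size) in chow GFP libraries, 24.9 to 40.4 CPM in NASH GFP libraries and 2.98 to 5.67 CPM in Activin A libraries. It stood at 26.2 to 36.4 CPM in scramble libraries and 1.26 to 3.30 CPM in hairpin libraries, so the hairpin and scramble ranges did not overlap. The summed level of the 11 hepatocyte markers that could be tested ran from 89373 to 123648 CPM in chow GFP libraries and from 64906 to 78295 CPM in NASH GFP libraries. The NASH GFP libraries enter the diet comparison and are the controls of the Activin A comparison, so values of these comparisons are set side by side and their likeness is not measured.

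The 44 genes were put into classes by the cell type known to make most of their protein, and the producing cells were not measured here. On the NASH diet 29 of 44 genes changed, 7 higher and 22 lower, at an adjusted p under 0.05 of edgeR's quasi-likelihood test, beside 17.0% of all genes tested (11.2% higher and 5.82% lower). The 7 that rose were the 6 genes of macrophages and leukocytes (C1qa, C1qb, C1qc, C3ar1, C5ar1 and Cfp) and Cfd, the gene of factor D. The 22 that fell all belonged to the 37 genes of the hepatocyte class. The chow and NASH GFP libraries did not overlap in 7 genes that were higher and 32 that were lower on the diet, beside 35.5% of all genes in either direction. Under Activin A 6 of 44 genes fell and 0 rose, beside 5.52% of all genes called in either direction (1.66% higher and 3.86% lower). NASH GFP and Activin A libraries did not overlap in 2 genes that were higher and 11 that were lower, beside 26.4% of all genes. By unadjusted p under 0.05 alone, 14 of the 44 differed under Activin A in edgeR, beside 20.1% of all genes. The Wald test of DESeq2 called 10 lower and 0 higher, beside 5.95% and 2.66% of all genes. Under the Gpnmb hairpin 19 rose and 6 fell, beside 12.2% and 12% of all genes (24.3% in either direction). Scramble and hairpin libraries did not overlap in 20 genes that were higher and 8 that were lower, beside 40.6% of all genes. The 6 that fell with the hairpin were the macrophage and leukocyte genes, and the 19 that rose were of the hepatocyte class.

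The median log2 fold change of the 6 macrophage and leukocyte genes was 1.68 on the diet, -1.10 under Activin A and -0.95 under the hairpin. The median of the 37 hepatocyte genes was -0.70, -0.06 and 0.25 in the same order. Over all genes tested the medians were -0.01, 0.00 and 0.00. When libraries were scaled to their totals alone, the median of all genes moved to 0.24 on the diet and -0.11 under the hairpin. The share of higher genes among all called moved from 65.7% to 86.8% on the diet and from 50.3% to 29.0% under the hairpin, and among the called members from 24.1% to 33.3% and from 76.0% to 65.2%. Under that scaling 16 of the 37 hepatocyte genes fell and 1, Pros1, rose on the diet. With it 15 rose and 2, C4bp and Masp2, fell with the hairpin, and all 6 macrophage and leukocyte genes were called in both, higher on the diet and lower with the hairpin. Under Activin A that scaling gave 9 called members, all lower, of which 4 were hepatocyte genes (C3, C4bp, C8a and Mbl2), and the median of all genes was -0.06. Summed over all 44 genes, the mean was 46123 CPM in chow GFP, 28862 CPM in NASH GFP and 26823 CPM in Activin A libraries. It was 25417 CPM in scramble and 32600 CPM in hairpin libraries. With TMM scaling, CPM do not add up to the same total in each library, so these sums are not shares of the counts. In bulk liver RNA, fewer cells of a type and less RNA per cell cannot be told apart.

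**Figure D1:**
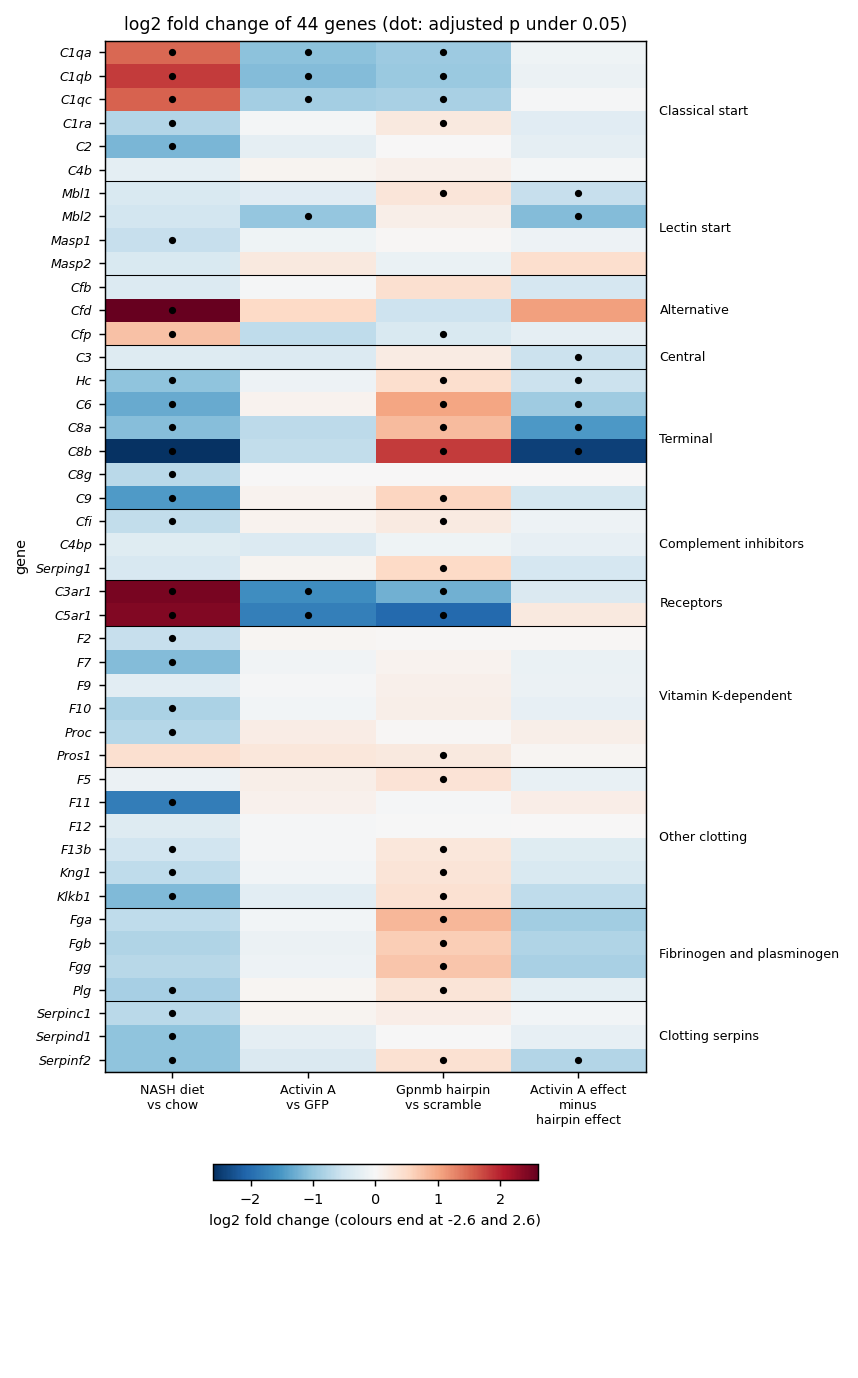
Log2 fold change of the 44 genes (lines, grouped by role) in 3 comparisons and in the difference between the Activin A and hairpin effects (columns), with a dot where the adjusted p of edgeR was under 0.05. Colour runs from blue (lower) to red (higher) and ends at -2.6 and 2.6, so the Cfd value of 3.49 is drawn at the end of the scale. The C1q genes and both receptors are red in the first column and blue in the next 2 columns, and the terminal components are blue in the first and mostly red in the third.

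**Figure D2:**
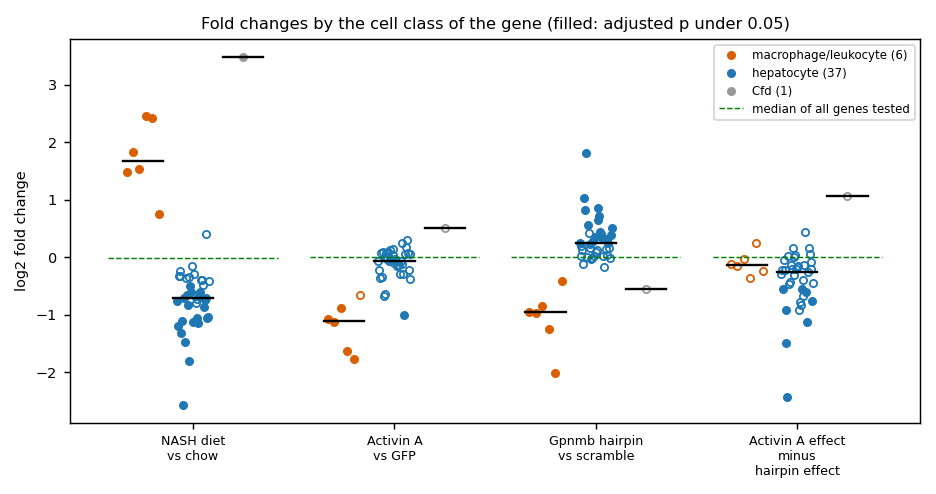
Log2 fold changes (vertical axis) of the 6 macrophage and leukocyte genes, the 37 hepatocyte genes and Cfd in 3 comparisons and in the difference between the Activin A and hairpin effects. Each point is a gene, filled where the adjusted p was under 0.05, black bars are medians within a class and the dashed line is the median of all genes tested. The macrophage and leukocyte medians lie at 1.68, -1.10 and -0.95 in the first 3 comparisons.

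The genes of the 3 C1q chains lie side by side on chromosome 4 (GRCm38), in the order C1qb, C1qc, C1qa, with gaps of 3616 and 2851 bases. Their identities are C1qb (ENSMUSG00000036905, chromosome 4, 136880129 to 136886187), C1qc (ENSMUSG00000036896, chromosome 4, 136889804 to 136893065) and C1qa (ENSMUSG00000036887, chromosome 4, 136895917 to 136898803). C1qb stood at 21.1, 26.8 and 26.9 CPM in chow GFP libraries and 92.03, 90.4 and 75.2 CPM in NASH GFP libraries. It stood at 35.8, 41.2 and 42.1 CPM in Activin A libraries, 67.2, 81.9 and 74.03 CPM in scramble libraries and 38.96, 41.6 and 31.9 CPM in hairpin libraries. Both NASH control groups were therefore high in every library, and chow, Activin A and hairpin libraries were all below them. The log2 fold change of C1qb was 1.83 ± 0.16 (SE) on the diet, a 3.54-fold rise (edgeR adjusted p = 0.000115). It was -1.13 ± 0.11 in the Activin A comparison and -0.97 ± 0.11 in the hairpin comparison (edgeR adjusted p = 0.00113 and 0.000218).

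C1qa stood at 24.1, 26.5 and 37.4 CPM in chow GFP libraries, 82.1, 89.1 and 68.7 CPM in NASH GFP libraries and 31.97, 40.8 and 42.6 CPM in Activin A libraries. It stood at 51.5, 63.5 and 59.8 CPM in scramble libraries and 32.6, 34.2 and 22.7 CPM in hairpin libraries. Again both NASH control groups lay above the chow libraries and above the groups treated beside them. C1qa rose by 1.49 ± 0.19 on the log2 scale on the diet (edgeR adjusted p = 0.000648). It had log2 fold changes of -1.07 ± 0.14 and -0.94 ± 0.14 under Activin A and the hairpin (edgeR adjusted p = 0.00281 and 0.00107). C1qc stood at 17.9, 21.5 and 26.97 CPM in chow GFP, 66.5, 64.5 and 56.1 CPM in NASH GFP and 29.4, 36.8 and 35.9 CPM in Activin A libraries. It stood at 52.3, 61.5 and 57.8 CPM in scramble and 32.7, 36.3 and 25.3 CPM in hairpin libraries, again with no overlap between a treated group and its control. Its log2 fold changes were 1.54 ± 0.17, -0.89 ± 0.12 and -0.84 ± 0.12 in the same 3 comparisons (edgeR adjusted p = 0.000409, 0.00335 and 0.000904). All 3 C1q genes kept these calls in each alternative fit and with any library left out.

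The ratios between the C1q chains varied less than their levels. Per gene length, the deposited FPKM of C1qb was 0.688 to 0.964 times that of C1qa in chow GFP libraries and 0.970 to 1.07 times in NASH GFP libraries. The ratio was 0.944 to 1.07 in Activin A, 1.18 to 1.25 in scramble and 1.14 to 1.34 in hairpin libraries. The scramble and hairpin ranges overlapped, as did those of NASH GFP and Activin A, while every chow library was below every NASH GFP library. The ratio of C1qc to C1qa separated other groups. It was 0.389 to 0.436 in chow GFP and 0.390 to 0.439 in NASH GFP libraries, which overlapped, and 0.454 to 0.494 in Activin A libraries, all above the NASH GFP libraries. It was 0.520 to 0.547 in scramble and 0.540 to 0.600 in hairpin libraries, which overlapped.

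Upstream sequence is shown for C1qc because it alone of the 5 macrophage and leukocyte genes found in the RefSeq promoter table held the motif searched for PU.1 (GAGGAAGT), a myeloid transcription factor. The sequence is the part of the 250 bases before the RefSeq start that lies outside the gene's own annotated span (RefSeq, GRCm38.p6, chr4:136893066-136893164, minus strand), 5′ to 3′, with the match, which lies on the opposite strand, in capitals.
C1qc: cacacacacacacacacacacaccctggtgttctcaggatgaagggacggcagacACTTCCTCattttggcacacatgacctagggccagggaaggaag
The match begins 195 bases before the RefSeq start, and the motif was found in 2.44% of all 32851 promoter windows of this length.

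C3ar1 and C5ar1, which encode the receptors for C3a and C5a, were among the 3 least abundant of the 44 genes per length in every group, with Cfb. C3ar1 (ENSMUSG00000040552, chromosome 6) stood at 1.52, 2.09 and 1.52 CPM in chow GFP libraries, 10.2, 9.49 and 7.80 CPM in NASH GFP libraries and 3.16, 3.21 and 2.61 CPM in Activin A libraries. It stood at 8.03, 10.5 and 10.7 CPM in scramble and 3.999, 4.63 and 3.52 CPM in hairpin libraries, and neither treated group overlapped its control. C3ar1 rose 5.51-fold on the diet, by 2.46 ± 0.27 on the log2 scale (edgeR adjusted p = 0.000341). It was 3.08-fold lower under Activin A (log2 fold change -1.62 ± 0.20, edgeR adjusted p = 0.00246) and 2.37-fold lower under the hairpin (log2 fold change -1.24 ± 0.18, edgeR adjusted p = 0.000923).

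C5ar1 (ENSMUSG00000049130, chromosome 7) stood at 0.851, 1.19 and 0.483 CPM in chow GFP libraries, 5.60, 4.07 and 3.50 CPM in NASH GFP libraries and 1.25, 1.66 and 0.972 CPM in Activin A libraries. It stood at 3.49, 4.76 and 4.79 CPM in scramble and 1.21, 1.32 and 0.649 CPM in hairpin libraries, and the lowest control library of each kind was above the highest treated one. C5ar1 rose 5.34-fold on the diet (log2 fold change 2.42 ± 0.41, edgeR adjusted p = 0.003). It was 3.41-fold lower under Activin A (log2 fold change -1.77 ± 0.31, edgeR adjusted p = 0.0119) and 4.03-fold lower under the hairpin (log2 fold change -2.01 ± 0.30, edgeR adjusted p = 0.00115). The Activin A call of C5ar1 was lost without Activin A replicate 1 (log2 fold change -1.75, edgeR adjusted p = 0.0594) and without Activin A replicate 3 (log2 fold change -1.60, edgeR adjusted p = 0.0679).

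Cfp, the X-linked gene of properdin, which stabilises the alternative C3 convertase, moved least of the 6. It stood at 11.8, 13.9 and 19.3 CPM in chow GFP, 28.8, 18.4 and 26.7 CPM in NASH GFP and 13.6, 18.4 and 15.6 CPM in Activin A libraries. It stood at 25.6, 28.4 and 26.2 CPM in scramble and 22.2, 21.5 and 15.96 CPM in hairpin libraries, so chow and NASH GFP libraries overlapped while scramble and hairpin libraries did not. Cfp rose by 0.76 ± 0.23 on the diet (edgeR adjusted p = 0.0447) and had a log2 fold change of -0.40 ± 0.12 under the hairpin (edgeR adjusted p = 0.0359). Under Activin A its log2 fold change was -0.65 ± 0.18 (edgeR adjusted p = 0.0691), which did not pass. Cfp was called lower there by DESeq2 and by edgeR with no filter on low counts, where all 6 genes of the class were called. With single libraries left out, its diet call was lost without chow GFP replicate 1 or 2 or NASH GFP replicate 1 or 3. Its hairpin call was lost without any one scramble library or hairpin replicate 2 or 3. Over all alternatives its edgeR adjusted p ran up to 0.18 on the diet and 0.19 under the hairpin.

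Markers of macrophages and of some other cell types moved with these genes. Of 12 monocyte and macrophage markers, Lyz2 and Cd68 among them, 11 were tested on the diet and all 11 rose, while 10 of 12 fell under Activin A and 10 of 12 under the hairpin. Their summed level ran from 131 to 139 CPM in chow GFP libraries, from 419 to 501 CPM in NASH GFP libraries and from 165 to 188 CPM in Activin A libraries. It ran from 363 to 455 CPM in scramble and from 161 to 216 CPM in hairpin libraries. Of 8 Kupffer cell markers 4 rose on the diet, 2 fell under Activin A, and 1 rose and 3 fell under the hairpin. Their summed level ran from 92.3 to 138 CPM in chow GFP, from 196 to 301 CPM in NASH GFP, from 147 to 195 CPM in Activin A, from 298 to 302 CPM in scramble and from 187 to 258 CPM in hairpin libraries. All 7 markers of lipid-associated macrophages, Trem2 and the hairpin's target Gpnmb among them, rose on the diet and fell under Activin A, and 5 of the 7 fell under the hairpin. Their summed level ran from 57.1 to 86.8 CPM in chow GFP, from 230.4 to 403 CPM in NASH GFP, from 78.6 to 85.8 CPM in Activin A, from 163 to 346 CPM in scramble and from 104 to 118 CPM in hairpin libraries. Of 6 neutrophil markers 3 were tested on the diet and rose (S100a8, S100a9 and Csf3r), 0 of 3 passed under Activin A in edgeR, and 1 of 2, Csf3r, fell under the hairpin. Under Activin A S100a8 and Csf3r had an unadjusted p under 0.05, and DESeq2 called S100a8, lower. Their summed level was low and ran from 1.45 to 2.55 CPM in chow GFP, from 6.78 to 8.25 CPM in NASH GFP, from 2.46 to 4.70 CPM in Activin A, from 5.16 to 9.08 CPM in scramble and from 2.76 to 4.48 CPM in hairpin libraries. Of 6 sinusoidal endothelial markers 3 rose on the diet, 1 rose and 1 fell under Activin A, and 3 fell under the hairpin. Their summed level ran from 135 to 163 CPM in chow GFP, from 187 to 237 CPM in NASH GFP, from 216 to 245 CPM in Activin A, from 243 to 288 CPM in scramble and from 182 to 244 CPM in hairpin libraries. The part of these cell types in the values of the macrophage and leukocyte genes was not tested.

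**Figure D3:**
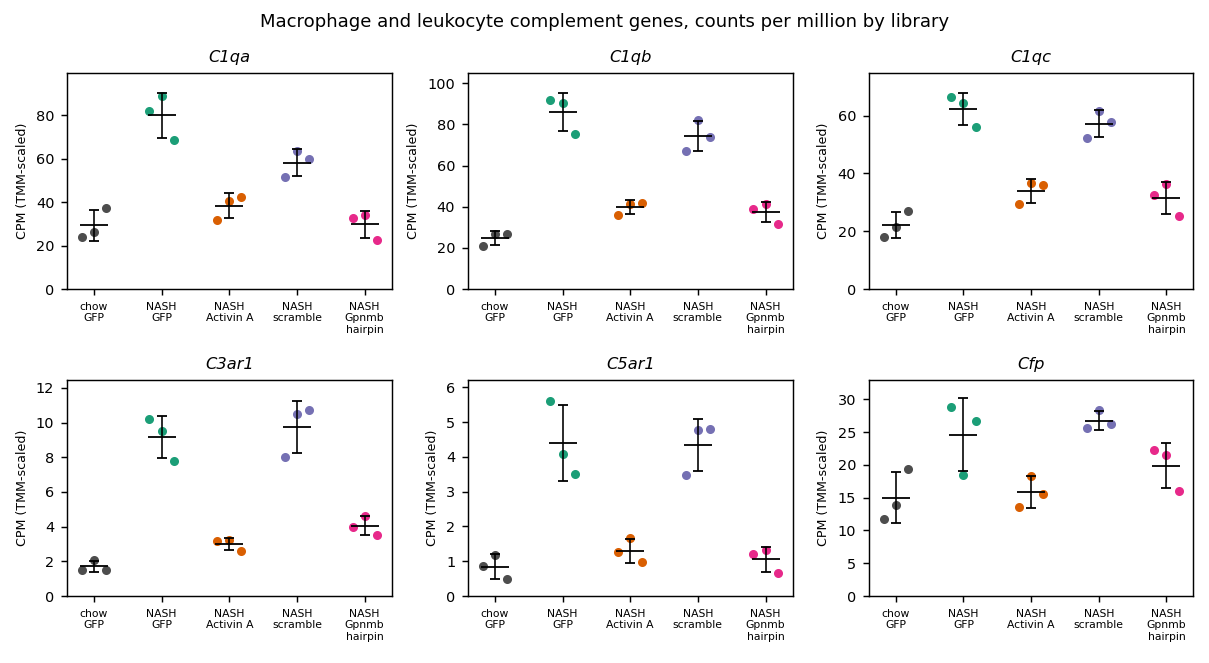
Level in CPM (vertical axes, from 0) of the 6 macrophage and leukocyte genes in each of the 15 libraries, by group. Points are libraries, horizontal bars are group means and error bars are 1 SD (n = 3). In all 6 genes the Activin A libraries lie below every NASH GFP library and the hairpin libraries below every scramble library.

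Among the hepatocyte-made proteins of the classical route, C1ra and C2 fell on the diet and C4b did not pass. C1ra encodes the protease C1r and ran from 329 to 342 CPM in chow GFP and from 173 to 217 CPM in NASH GFP libraries (log2 fold change -0.76 ± 0.15, edgeR adjusted p = 0.00729). It rose by 0.25 ± 0.07 with the hairpin (edgeR adjusted p = 0.0318), a call lost without scramble replicate 2 or 3 or hairpin replicate 3, with an edgeR adjusted p of up to 0.14 over the alternatives. C2, the protease part of the classical C3 convertase, ran from 39.9 to 55.9 CPM in chow GFP and from 18.4 to 21.4 CPM in NASH GFP libraries, a 2.28-fold fall (log2 fold change -1.19 ± 0.17, edgeR adjusted p = 0.0013). C4b, which encodes C4, ran from 1428 to 2244 CPM in chow GFP and from 1322 to 1700.3 CPM in NASH GFP libraries, and these ranges overlapped. C4b has a near copy, C4a, and C1ra has one, C1rb, and how reads shared by such copies were counted is not known from the sources at hand.

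Of the mannose-binding lectin genes, Mbl2 was called under Activin A and Mbl1 was not. Mbl2 (ENSMUSG00000024863, chromosome 19), which encodes mannose-binding lectin C, stood at 269.9, 262 and 447 CPM in chow GFP and 249.6, 233 and 198 CPM in NASH GFP libraries. It stood at 105, 118 and 122 CPM in Activin A, 205, 181 and 191 CPM in scramble and 170.4, 233 and 228 CPM in hairpin libraries. Every Activin A library was below every other library, chow included. Mbl2 was 1.99-fold lower under Activin A (log2 fold change -0.996 ± 0.12, edgeR adjusted p = 0.00213), a call kept in each alternative fit, and it was the 1 hepatocyte gene of 37 called in that comparison with TMM scaling. DESeq2 called 4 (C3, C4bp, C8a and Mbl2), and edgeR called 3 with no filter on low counts (C3, C8a and Mbl2) and 3 with all 5 groups in 1 fit (C4bp, C8a and Mbl2). Its diet value was -0.48 ± 0.21 (edgeR adjusted p = 0.162) and its hairpin value 0.15 ± 0.11 (edgeR adjusted p = 0.35).

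Mbl1, the gene of mannose-binding lectin A, ran from 146 to 195 CPM in NASH GFP and from 141 to 149 CPM in Activin A libraries, with a log2 fold change of -0.29 ± 0.12 that did not pass (edgeR adjusted p = 0.207). The FPKM ratio of Mbl2 to Mbl1 was 1.05 to 1.19 in Activin A libraries and 1.45 to 2.44 in NASH GFP libraries, ranges that did not overlap. Mbl1 rose by 0.32 ± 0.08 with the hairpin (edgeR adjusted p = 0.0166), standing at 140.4 to 167 CPM in scramble and 174 to 198 CPM in hairpin libraries. That call was lost without scramble replicate 2 or 3 or hairpin replicate 2, with an edgeR adjusted p of up to 0.095 over the alternatives. Of the lectin proteases, Masp1 fell on the diet (log2 fold change -0.60 ± 0.18, edgeR adjusted p = 0.0463), and Masp2 passed in none of the 3 comparisons. The Masp1 call was lost with any one NASH GFP library, or chow GFP replicate 1 or 2, left out, with an edgeR adjusted p of up to 0.22. Masp1 overlaps Rtp4 and Masp2 overlaps Tardbp on the opposite strand, and the strand setting of the counting is not given.

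In the alternative route, Cfb, the gene of factor B, ran from 8.14 to 13.7 CPM in chow GFP and from 7.94 to 9.42 CPM in NASH GFP libraries, with overlap. Cfb and C2 lie 85 bases apart and share an annotated readthrough gene, Gm20547, so the division of reads between them is uncertain. Cfd encodes factor D, the protease adipsin, which adipocytes also make. It stood at 0.730, 4.996 and 8.35 CPM in chow GFP and 16.2, 71.8 and 63.6 CPM in NASH GFP libraries, which gave a log2 fold change of 3.49 ± 0.69 (edgeR adjusted p = 0.00727). It stood at 44.7, 93.7 and 79.3 CPM in Activin A, 33.4, 24.6 and 27.8 CPM in scramble and 45.3, 7.05 and 6.17 CPM in hairpin libraries. Hairpin replicate 1 was above every scramble library and the other 2 hairpin libraries were below every one. The hairpin value was -0.54 ± 0.58 over all libraries (edgeR adjusted p = 0.535) and -2.09 without hairpin replicate 1 (edgeR adjusted p = 3.85e-05). Of 5 adipocyte markers, Adipoq was at most 0.897 CPM and Plin1 at most 1.15 CPM in any library, and the summed level ran from 11.7 to 24.3 CPM in chow GFP and from 5.03 to 6.18 CPM in NASH GFP libraries, most of it Adrb3.

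C3, at which the routes meet, was among the 4 most abundant of the 44 genes per length in every group. It stood at 8058, 8096 and 5542 CPM in chow GFP, 4878, 5581 and 6354 CPM in NASH GFP and 4402, 4502 and 4286 CPM in Activin A libraries. It stood at 5335, 4760.5 and 5033 CPM in scramble and 5262, 5831 and 6049.5 CPM in hairpin libraries. Chow replicate 3 lay within the NASH GFP range, while all Activin A libraries lay below it. Its log2 fold changes were -0.33 ± 0.21, -0.36 ± 0.12 and 0.20 ± 0.09 on the diet, under Activin A and under the hairpin, and none passed (edgeR adjusted p = 0.334, 0.113 and 0.128).

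The terminal components, which build the membrane pore, fell as a group on the diet. All 6 (Hc, C6, C8a, C8b, C8g and C9) fell, and all but C8g rose with the hairpin against scramble. Under Activin A 0 of 6 passed in edgeR, where C8a and C8b had an unadjusted p under 0.05, and DESeq2 called C8a. Their summed level ran from 4413 to 5634 CPM in chow GFP, from 1726 to 2381 CPM in NASH GFP and from 1761 to 1835 CPM in Activin A libraries. It ran from 1684 to 1829 CPM in scramble and from 2463 to 3017 CPM in hairpin libraries, and the hairpin libraries stayed below all chow libraries.

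C8b, the gene of the C8 beta chain, had the largest log2 fold change of the 37 hepatocyte genes on the diet and under the hairpin, though not under Activin A. It lies on chromosome 4 (ENSMUSG00000029656, 104766317 to 104804548), 11130 bases from C8a (ENSMUSG00000035031, 104815679 to 104876398), the gene of the alpha chain, and the 2 genes are read towards each other. C8b stood at 653, 549 and 524 CPM in chow GFP, 54.7, 83.7 and 145 CPM in NASH GFP and 60.5, 62.5 and 60.5 CPM in Activin A libraries. It stood at 66.4, 52.2 and 53.7 CPM in scramble and 189.9, 188 and 216 CPM in hairpin libraries. Every hairpin library was above every other NASH library, and every chow library was above all of them. C8b was 5.94-fold lower on the diet (log2 fold change -2.57 ± 0.31, edgeR adjusted p = 0.000571) and rose 3.51-fold with the hairpin (log2 fold change 1.81 ± 0.10, edgeR adjusted p = 5.37e-06). Under Activin A its value was -0.64 ± 0.28 (edgeR adjusted p = 0.234). That value became -0.91 and passed without NASH GFP replicate 1, the lowest of the 3 (edgeR adjusted p = 0.039), and was -0.19 without replicate 3, the highest (edgeR adjusted p = 0.49).

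C8a stood at 1226, 1102 and 884 CPM in chow GFP, 361, 443 and 651 CPM in NASH GFP and 280.2, 331 and 307 CPM in Activin A libraries. It stood at 387, 326 and 354 CPM in scramble and 589, 559.9 and 709 CPM in hairpin libraries, all of the latter above all scramble libraries. C8a fell on the diet (log2 fold change -1.11 ± 0.24, edgeR adjusted p = 0.0103) and rose with the hairpin (log2 fold change 0.82 ± 0.10, edgeR adjusted p = 0.000398), while its Activin A value of -0.68 ± 0.19 did not pass (edgeR adjusted p = 0.072). All Activin A libraries lay below all NASH GFP libraries, and the value passed without NASH GFP replicate 1 (edgeR adjusted p = 0.0255) and without replicate 3 (edgeR adjusted p = 0.0471).

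The neighbours C8a and C8b did not move by the same amount. Per length, the FPKM of C8b was 0.712 to 0.847 times that of C8a in chow GFP libraries, 0.216 to 0.318 in NASH GFP and 0.270 to 0.309 in Activin A libraries. The ratio was 0.217 to 0.245 in scramble libraries and 0.436 to 0.480 in hairpin libraries, between the chow range and all other NASH ranges and overlapping none. C8g, the gene of the gamma chain on chromosome 2, ran from 302 to 427 CPM in chow GFP and from 205 to 225 CPM in NASH GFP libraries (log2 fold change -0.71 ± 0.16, edgeR adjusted p = 0.0144). Its hairpin value was 0.01 ± 0.09, with 208 to 240.5 CPM in scramble and 204 to 243 CPM in hairpin libraries. The diet call of C8g was lost without NASH GFP replicate 1 (edgeR adjusted p = 0.0659). C8a overlaps Gm17662 and C8g overlaps Fbxw5 on the opposite strand.

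**Figure D4:**
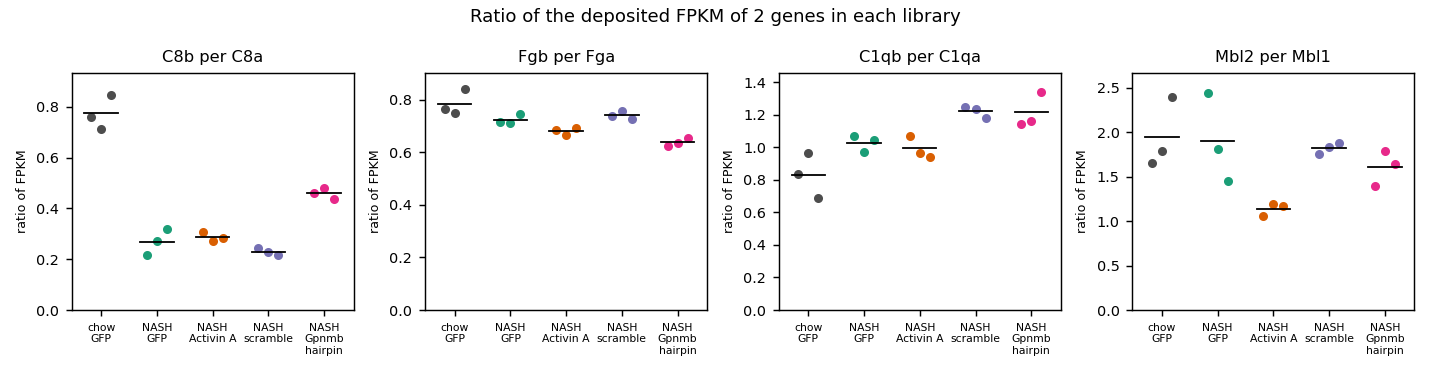
Ratio of the deposited FPKM of 2 genes within each library (vertical axes, from 0) for C8b per C8a, Fgb per Fga, C1qb per C1qa and Mbl2 per Mbl1, by group. Points are libraries and bars are group means (n = 3). C8b per C8a is highest in the chow libraries, lies at 0.436 to 0.480 in the hairpin libraries and at or below 0.318 in the other NASH libraries.

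Upstream sequences of the C8 genes are shown because the 2 neighbours differed in the size of their change and in motif content. Both are 250 bases before the RefSeq start (RefSeq, GRCm38.p6, chr4:104876399-104876648, minus strand, and chr4:104766067-104766316, plus strand), 5′ to 3′ on the gene's strand. Capitals in C8a mark the motif searched for STAT factors (TTCNNNGAA), which begins 228 bases before the start, and the C8b window held none of the 5 motifs searched.
C8a: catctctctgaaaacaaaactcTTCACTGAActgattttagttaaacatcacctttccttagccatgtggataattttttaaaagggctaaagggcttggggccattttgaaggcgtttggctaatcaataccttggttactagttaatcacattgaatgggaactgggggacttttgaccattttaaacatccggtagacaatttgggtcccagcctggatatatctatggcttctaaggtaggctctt
C8b: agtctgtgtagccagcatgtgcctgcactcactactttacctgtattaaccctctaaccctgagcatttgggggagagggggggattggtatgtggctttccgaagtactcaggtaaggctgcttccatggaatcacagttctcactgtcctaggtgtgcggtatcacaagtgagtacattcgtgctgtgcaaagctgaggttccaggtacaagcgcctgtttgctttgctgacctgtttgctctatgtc
The STAT motif was found in 7.02% of all windows.

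C6 and C9 also lie on a single chromosome, 15, though far apart. C6 stood at 586, 507 and 469 CPM in chow GFP, 172, 201 and 242 CPM in NASH GFP and 227, 218 and 218 CPM in Activin A libraries. It stood at 169, 163 and 163 CPM in scramble and 307, 325 and 362 CPM in hairpin libraries, where the hairpin libraries were above all other NASH libraries. C6 was 2.48-fold lower on the diet (log2 fold change -1.31 ± 0.18, edgeR adjusted p = 0.00111) and rose 2.04-fold with the hairpin (log2 fold change 1.03 ± 0.08, edgeR adjusted p = 2.19e-05). In the mouse C6 is also made by Kupffer cells, whose markers, given above, were higher on the diet. C9, which forms most of the pore, stood at 928, 847 and 957 CPM in chow GFP, 304, 339 and 316 CPM in NASH GFP and 349.6, 344 and 333 CPM in Activin A libraries. It stood at 234, 219 and 226 CPM in scramble and 289, 271 and 419.6 CPM in hairpin libraries. Every hairpin library was above every scramble library, with hairpin replicate 3 well above the other 2. Hairpin replicates 1 and 2 were below every NASH GFP and every Activin A library. It was 2.77-fold lower on the diet (log2 fold change -1.47 ± 0.15, edgeR adjusted p = 0.000291) and rose by 0.55 ± 0.14 with the hairpin (edgeR adjusted p = 0.0155). The hairpin call of C9 was lost without scramble replicate 2 (edgeR adjusted p = 0.0527) or 3 (edgeR adjusted p = 0.059).

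Hc, the mouse gene of C5, stood at 1895, 1449 and 1152 CPM in chow GFP, 629, 665 and 818 CPM in NASH GFP and 669.6, 663 and 620.1 CPM in Activin A libraries. It stood at 732, 715 and 721 CPM in scramble and 917, 911 and 1068 CPM in hairpin libraries, and the NASH GFP, Activin A and scramble libraries all lay between 620.1 and 818 CPM. Hc fell 2.08-fold on the diet (log2 fold change -1.05 ± 0.22, edgeR adjusted p = 0.0083) and rose 1.36-fold with the hairpin (log2 fold change 0.44 ± 0.08, edgeR adjusted p = 0.00349). So for C5 the ligand precursor fell on the diet while the gene of its receptor, C5ar1, rose, and both directions were opposite under the hairpin.

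Of the 3 complement inhibitors, Cfi, the gene of the protease factor I, fell on the diet (log2 fold change -0.65 ± 0.16, edgeR adjusted p = 0.0173) and rose with the hairpin (log2 fold change 0.24 ± 0.07, edgeR adjusted p = 0.0303). Serping1, which encodes the C1 inhibitor, rose with the hairpin by 0.52 ± 0.08 (edgeR adjusted p = 0.00174), standing at 671, 569.7 and 602 CPM in scramble and 817, 861 and 919 CPM in hairpin libraries. Its diet value was -0.42 ± 0.16 (edgeR adjusted p = 0.114). C4bp, the gene of the C4b-binding protein, passed in none of the 3 comparisons, with values from -0.35 to -0.12. The diet call of Cfi was lost without NASH GFP replicate 1 or 2 and its hairpin call without scramble replicate 2 or 3 or any one hairpin library, with an edgeR adjusted p of up to 0.083 on the diet and 0.13 under the hairpin over the alternatives.

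The vitamin K-dependent proteins are proteases and cofactors that need carboxylation in the hepatocyte to bind membranes. Of these 6 genes, F7, F10, Proc and F2 fell on the diet, F9 and Pros1 did not pass, and Pros1 passed with the hairpin. Under Activin A 0 of 6 passed in edgeR, where Pros1 had an unadjusted p under 0.05, and DESeq2 also called 0. F10, the gene of factor X, stood at 465, 452 and 574 CPM in chow GFP, 246, 271 and 303 CPM in NASH GFP and 257, 271 and 261 CPM in Activin A libraries. It stood at 274, 236 and 244 CPM in scramble and 265, 276 and 284 CPM in hairpin libraries. The log2 fold change of F10 was -0.82 ± 0.16 on the diet, and all 12 NASH libraries lay below the chow libraries. Its neighbour F7, 1498 bases away on chromosome 8, encodes factor VII and ran from 105 to 132 CPM in chow GFP and from 40.9 to 63.3 CPM in NASH GFP libraries (log2 fold change -1.12 ± 0.18, edgeR adjusted p = 0.00233).

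F2, the gene of prothrombin, was 1.52-fold lower on the diet (log2 fold change -0.61 ± 0.16, edgeR adjusted p = 0.0274). Its call was lost with any one chow library, or NASH GFP replicate 1 or 2, left out, with an edgeR adjusted p of up to 0.11 over the alternatives. Proc encodes the anticoagulant protein C and had a log2 fold change of -0.75 ± 0.16 on the diet (edgeR adjusted p = 0.0107). Pros1, the gene of protein S, the cofactor of protein C, had a positive diet value, 0.41 ± 0.14 (edgeR adjusted p = 0.0712), and with TMM scaling the other 36 hepatocyte genes had negative ones. With scaling to library totals F5 was positive too, and Pros1 passed (0.66, edgeR adjusted p = 0.0109). It ran from 65.3 to 82.01 CPM in chow GFP, from 92.95 to 97.4 CPM in NASH GFP and from 115 to 119 CPM in Activin A libraries, with no overlap between these groups. Pros1 rose by 0.25 ± 0.07 with the hairpin (edgeR adjusted p = 0.027), a call lost with any one scramble library, or hairpin replicate 2 or 3, left out, where the edgeR adjusted p reached 0.2 over the alternatives. F9, the gene of factor IX, had values of -0.28, -0.04 and 0.13 in the 3 comparisons and passed in none.

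F11, the gene of factor XI of the contact route, fell most of the clotting genes. It lies 4657 bases from Klkb1 on chromosome 8 (ENSMUSG00000031645, 45241174 to 45262031). F11 stood at 177, 125 and 131 CPM in chow GFP, 34.3, 40.8 and 46.2 CPM in NASH GFP and 39.8, 47.6 and 45.5 CPM in Activin A libraries. It stood at 43.7, 34.9 and 41.1 CPM in scramble and 34.1, 36.6 and 44.5 CPM in hairpin libraries, so the 12 NASH libraries overlapped one another and lay far below chow. F11 was 3.48-fold lower on the diet (log2 fold change -1.80 ± 0.18, edgeR adjusted p = 0.000287), with values of 0.12 ± 0.13 under Activin A and -0.03 ± 0.11 under the hairpin. Klkb1, the gene of prekallikrein and a close relative of F11, also fell on the diet, with a log2 fold change of -1.14 ± 0.20 (edgeR adjusted p = 0.00401). Klkb1 rose by 0.40 ± 0.09 with the hairpin (edgeR adjusted p = 0.00772), standing at 145, 123 and 132 CPM in scramble and 163, 164 and 190.3 CPM in hairpin libraries. Per length the FPKM of F11 was 0.667 to 0.731 times that of Klkb1 in scramble and 0.490 to 0.548 times in hairpin libraries, ranges without overlap. Klkb1 overlaps the annotated gene Gm45753 on the same strand, so the division of reads between them is uncertain.

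Kng1, the gene of kininogen, and F13b, the gene of the carrier chain of factor XIII, fell on the diet (log2 fold changes -0.66 ± 0.17 and -0.50 ± 0.15) and rose with the hairpin (0.34 ± 0.09 and 0.29 ± 0.09). The Kng1 diet call was lost without chow GFP replicate 1 or 3 or NASH GFP replicate 1 or 2, and that of F13b with any one chow library or NASH GFP replicate 1 or 2 left out. Both hairpin calls were lost without scramble replicate 2 or 3, and that of F13b also without hairpin replicate 3. Their edgeR adjusted p ran up to 0.088 and 0.25 on the diet and 0.096 and 0.15 under the hairpin over the alternatives. F5, the gene of the cofactor factor V, rose by 0.36 ± 0.08 with the hairpin (edgeR adjusted p = 0.00923) and had a diet value of -0.14 ± 0.21 (edgeR adjusted p = 0.697). The F5 call was lost without scramble replicate 3 (edgeR adjusted p = 0.0628). F12, the gene of factor XII, passed in none of the 3 comparisons. Kng1 has a near copy, Kng2.

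Fga, Fgb and Fgg encode the 3 chains of fibrinogen and form a cluster on chromosome 3, where Fgg and Fga are 11026 bases apart and Fga and Fgb 6513. They were among the 4 most abundant of the 44 genes per length in every group. Fga (ENSMUSG00000028001, chromosome 3, 83026076 to 83033627) stood at 5824, 4759 and 5166 CPM in chow GFP, 1963, 4334 and 3361 CPM in NASH GFP and 3246, 2992 and 3100.3 CPM in Activin A libraries. It stood at 2631, 2114 and 2384 CPM in scramble and 4368, 4184 and 4181 CPM in hairpin libraries. All chow libraries were above all NASH GFP libraries, but NASH GFP replicate 1 was far below the other 2. Fga rose 1.82-fold with the hairpin (log2 fold change 0.86 ± 0.09, edgeR adjusted p = 0.000218), and its diet value of -0.67 ± 0.26 did not pass (edgeR adjusted p = 0.117).

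Fgb stood at 5644, 4518 and 5484 CPM in chow GFP, 1778, 3890.3 and 3167 CPM in NASH GFP and 2812, 2525 and 2714 CPM in Activin A libraries. It stood at 2457, 2027 and 2191 CPM in scramble and 3443, 3362 and 3463 CPM in hairpin libraries, with NASH GFP replicate 1 again the lowest of its group. Fgb had a diet value of -0.79 ± 0.27 that did not pass (edgeR adjusted p = 0.0699) and rose by 0.65 ± 0.09 with the hairpin (edgeR adjusted p = 0.00076). Without NASH GFP replicate 2, the highest, its diet value was -1.04 and passed (edgeR adjusted p = 0.0462). Fgg stood at 3944, 3314 and 4311 CPM in chow GFP, 1350.3, 3041 and 2438 CPM in NASH GFP and 2305, 1956 and 2027 CPM in Activin A libraries. It stood at 1874, 1523 and 1665 CPM in scramble and 2694, 2662 and 2827 CPM in hairpin libraries. As with the other chains, the hairpin libraries were all above the scramble libraries. For Fgb and Fgg, however, every hairpin library lay within the NASH GFP range, below NASH GFP replicate 2. For Fga, hairpin replicates 2 and 3 did so too. The next values are again those of Fgg. Its diet value was -0.72 ± 0.27 (edgeR adjusted p = 0.099) and it rose by 0.72 ± 0.09 with the hairpin (edgeR adjusted p = 0.000486). Under Activin A the 3 fibrinogen genes had values of -0.06 ± 0.23, -0.15 ± 0.23 and -0.13 ± 0.24, and none passed.

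The ratio of 2 of the chains varied less than their levels. The FPKM of Fgb was 0.750 to 0.839 times that of Fga in chow GFP, 0.709 to 0.744 in NASH GFP and 0.666 to 0.691 in Activin A libraries. It was 0.726 to 0.758 in scramble and 0.623 to 0.654 in hairpin libraries, where every hairpin library was lower than every scramble library. In NASH GFP replicate 1, where the levels were low, the ratio was 0.715, within the range of the other 2 libraries.

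Upstream sequences of Fga and Fgb are shown because both held the motifs searched for C/EBP (TTGCNNAA) and for STAT factors (TTCNNNGAA), families of transcription factors known for the acute phase control of fibrinogen. They are 250 bases before the RefSeq start, for Fga only the part outside the gene's annotated span (RefSeq, GRCm38.p6, chr3:83025903-83026075, plus strand, and chr3:83049864-83050113, minus strand), 5′ to 3′ on the gene's strand, with the matches in capitals, STAT first in each. The C/EBP match of Fga lies on the opposite strand, so that its printed letters are the reverse complement of the motif.
Fga: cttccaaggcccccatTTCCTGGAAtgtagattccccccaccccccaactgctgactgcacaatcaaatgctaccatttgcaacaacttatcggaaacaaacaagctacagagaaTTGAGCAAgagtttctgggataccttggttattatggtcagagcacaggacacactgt
Fgb: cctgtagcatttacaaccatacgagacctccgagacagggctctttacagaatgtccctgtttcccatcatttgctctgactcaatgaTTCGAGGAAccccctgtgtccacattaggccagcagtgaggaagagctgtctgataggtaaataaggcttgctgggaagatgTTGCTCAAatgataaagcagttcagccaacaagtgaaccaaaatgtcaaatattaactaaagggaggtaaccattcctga
The matches begin 234 bases (STAT) and 135 bases (C/EBP) before the start of Fga, and 162 and 80 bases before that of Fgb. The Fgg window held none of the motifs searched.

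Plg encodes plasminogen, the precursor of the fibrin-dissolving protease plasmin. It ran from 2291 to 2530.4 CPM in chow GFP and from 1055 to 1569.5 CPM in NASH GFP libraries (log2 fold change -0.86 ± 0.19, edgeR adjusted p = 0.0115) and rose by 0.33 ± 0.09 with the hairpin (edgeR adjusted p = 0.0252). The diet call was lost without NASH GFP replicate 2 (edgeR adjusted p = 0.0561), and the hairpin call without scramble replicate 2 (edgeR adjusted p = 0.084), scramble replicate 3 (edgeR adjusted p = 0.117) or hairpin replicate 3 (edgeR adjusted p = 0.063).

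The 3 clotting serpins, which inhibit thrombin, other clotting proteases or plasmin, all fell on the diet. Serpind1, the gene of heparin cofactor II, ran from 634 to 684 CPM in chow GFP and from 277 to 335 CPM in NASH GFP libraries, a 2.07-fold fall (log2 fold change -1.05 ± 0.15, edgeR adjusted p = 0.00141). Serpinf2, the gene of alpha2-antiplasmin, had a log2 fold change of -1.04 ± 0.21 (edgeR adjusted p = 0.00856), and Serpinc1, the gene of antithrombin, one of -0.70 ± 0.16 (edgeR adjusted p = 0.0134). Serpinf2 rose by 0.39 ± 0.07 with the hairpin (edgeR adjusted p = 0.00389), standing at 482, 442 and 462 CPM in scramble and 570.1, 585 and 635 CPM in hairpin libraries. The Serpinc1 diet call was lost without NASH GFP replicate 1 (edgeR adjusted p = 0.0527) or 2 (edgeR adjusted p = 0.0663), as was that of Proc (edgeR adjusted p = 0.0551 and 0.0537). The genes that fell on the diet thus included procoagulant ones (F2, F7, F10 and F11) and anticoagulant ones (Proc, Serpinc1 and Serpind1).

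**Figure D5:**
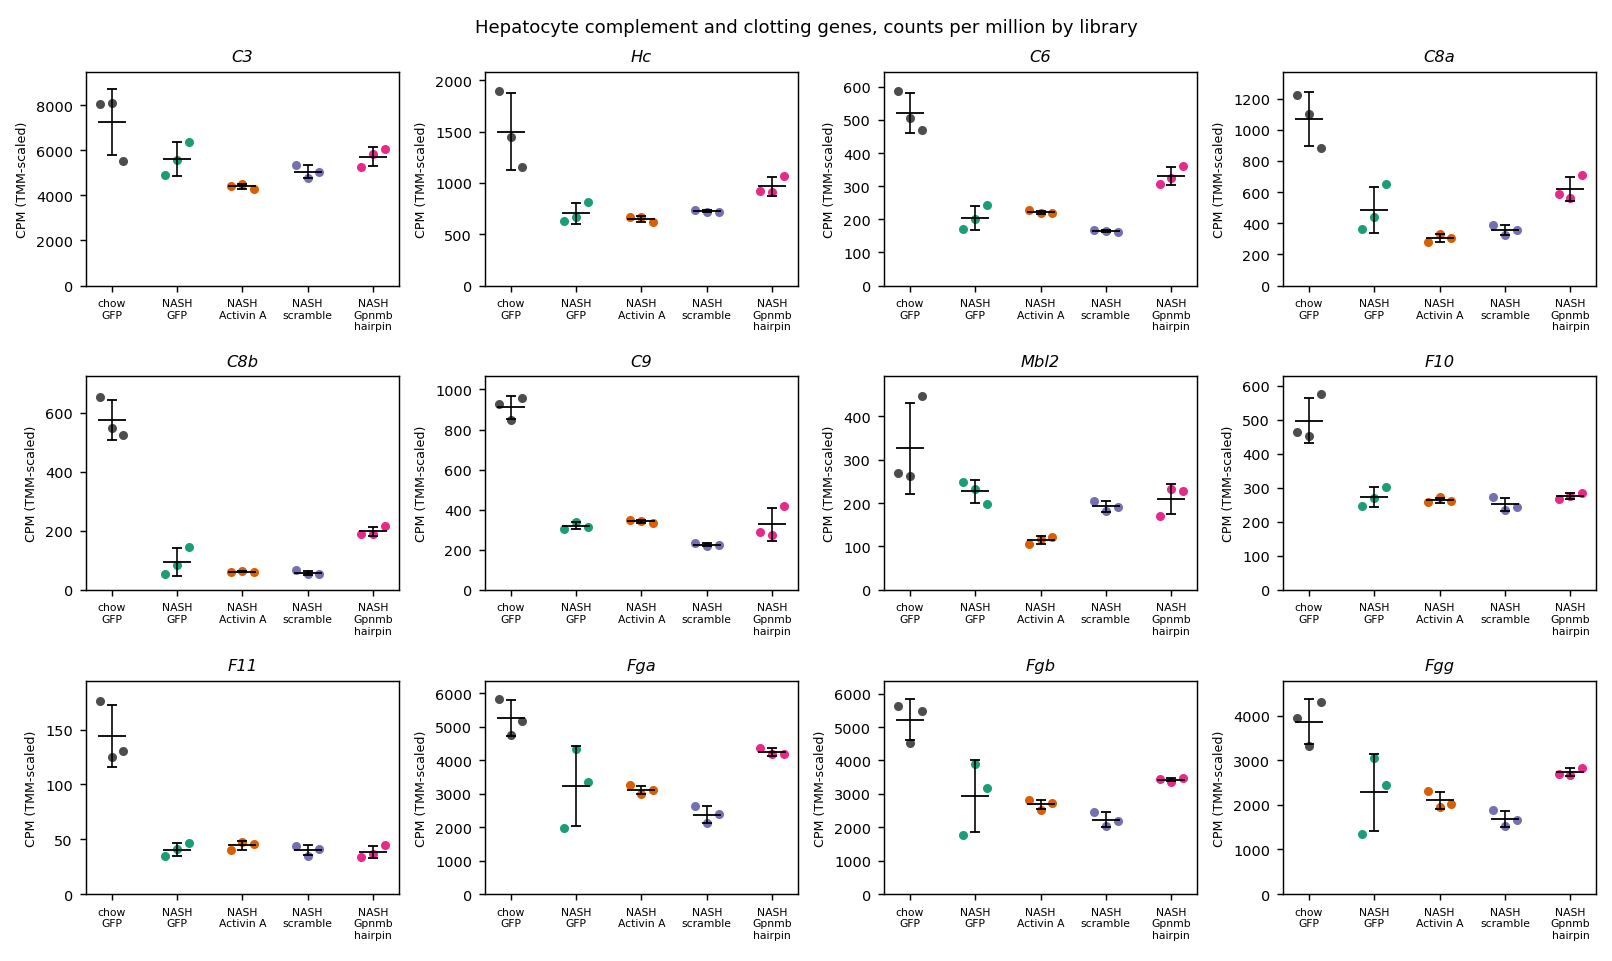
Level in CPM (vertical axes, from 0) of 12 hepatocyte-made complement and clotting genes in each of the 15 libraries, by group. Points are libraries, horizontal bars are group means and error bars are 1 SD (n = 3). The chow libraries lie above all NASH GFP libraries in Hc, C6, C8a, C8b, C9, Mbl2, F10, F11 and the fibrinogen genes. The hairpin libraries lie above all scramble libraries in Hc, C6, C8a, C8b, C9 and the fibrinogen genes.

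Taking the 3 comparisons side by side, 12 of the 37 hepatocyte genes fell on the diet and rose with the hairpin (C1ra, C6, C8a, C8b, C9, Cfi, F13b, Hc, Klkb1, Kng1, Plg and Serpinf2). A further 10 fell on the diet and did not pass with the hairpin (C2, C8g, F10, F11, F2, F7, Masp1, Proc, Serpinc1 and Serpind1), and 7 rose with the hairpin and did not pass on the diet (F5, Fga, Fgb, Fgg, Mbl1, Pros1 and Serping1). Beside Mbl2, the other 7 (C3, C4b, C4bp, Cfb, F12, F9 and Masp2) passed in none. Of the 12 that fell on the diet and rose with the hairpin, C6, C8a, C8b, Hc, Klkb1 and Serpinf2 kept both calls with any library left out. With all 5 groups in 1 fit, 8 of the 37 hepatocyte genes rose with the hairpin, against 19 in the main fit. Over all genes, 835 of 15665 rose with the hairpin in that fit, against 1813 of 14845 in the main fit. The share of all genes with each pattern of calls over the 3 comparisons was not counted. The diet and hairpin comparisons share no library. The summed level of the 37 genes ran from 44026 to 49052 CPM in chow GFP, from 22972 to 31542 CPM in NASH GFP and from 26465 to 26906 CPM in Activin A libraries. It ran from 23601 to 26896 CPM in scramble and from 31737 to 33835 CPM in hairpin libraries.

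The hepatocyte marker list gives the background for these levels. Of 11 markers tested 3 fell on the diet (Apoh, Ahsg and Ttr), 1 rose under Activin A (Ttr), and 3 rose (Hnf4a, Tat and Apob) and 1 fell (Fabp1) under the hairpin. Their summed level ran from 82655 to 84419.5 CPM in Activin A, from 67604 to 78796 CPM in scramble and from 78640.0 to 82611 CPM in hairpin libraries. Most of the sum was Alb, with a mean of 69167 of 106387 CPM in chow GFP and 45539 of 72063 CPM in NASH GFP libraries. The part of hepatocyte content in the hepatocyte values was not tested.

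The 2 control groups on the NASH diet were compared because they carry different vectors. In a fit of the 4 NASH groups, 4 of 44 genes differed between scramble and GFP, beside 4.30% of all genes (1.78% higher and 2.52% lower). Scramble and NASH GFP libraries did not overlap in 3 genes that were higher and 5 that were lower in scramble, beside 24.8% of all genes. Among the 37 hepatocyte genes 27 had negative and 10 positive differences, with a median of -0.11, beside -0.002 over all genes. C2 was higher in scramble libraries, at 27.1 to 28.4 CPM against 18.4 to 21.4 CPM in NASH GFP libraries (log2 difference 0.46 ± 0.10, edgeR adjusted p = 0.024). Cfb (-1.08 ± 0.19), C9 (-0.52 ± 0.13) and Pros1 (-0.30 ± 0.07) were lower in scramble libraries (edgeR adjusted p = 0.0114, 0.0377 and 0.0349). None of the C1q and receptor genes passed here, and C1qa had a difference of -0.48 ± 0.15 (edgeR adjusted p = 0.0804), which passed without NASH GFP replicate 3 (edgeR adjusted p = 0.0196) and without hairpin replicate 3 (edgeR adjusted p = 0.0467). The Cfb call was lost without scramble replicate 3 (edgeR adjusted p = 0.0655). The calls of C2, C9 and Pros1 were lost without NASH GFP replicate 1 or 2 or any one scramble library, and those of C9 and Pros1 also without some Activin A libraries, with an edgeR adjusted p of up to 0.098, 0.14 and 0.14. Without NASH GFP replicate 1 the 3 fibrinogen genes were called lower in scramble libraries, with Fga at -0.72 (edgeR adjusted p = 0.00704).

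The difference between the Activin A and hairpin effects was tested as an interaction in the same fit, in which each effect is measured against its own control. Of the 44 genes 8 differed, beside 6.76% of all genes (3.42% higher and 3.34% lower), and in all 8 the Activin A effect was the lower. These were C8b (-2.43 ± 0.34), C8a (-1.49 ± 0.24), Mbl2 (-1.13 ± 0.17), C6 (-0.92 ± 0.15), Serpinf2 (-0.75 ± 0.20), Mbl1 (-0.60 ± 0.15), C3 (-0.56 ± 0.15) and Hc (-0.55 ± 0.15), all on the log2 scale. Their edgeR adjusted p ran from 0.000733 for C8b to 0.037 for Serpinf2. The first 4 kept the call in every alternative fit, and C3, Hc, Mbl1 and Serpinf2 each lost it with any one Activin A library left out, among others, where the edgeR adjusted p reached 0.097, 0.099, 0.081 and 0.094 over the alternatives. The fibrinogen genes had differences of -0.91 ± 0.28, -0.78 ± 0.28 and -0.84 ± 0.29 that did not pass (edgeR adjusted p = 0.0651, 0.109 and 0.0994). Without NASH GFP replicate 1 all 3 passed, with values of -1.17, -1.05 and -1.11 (edgeR adjusted p = 0.000397, 0.000542 and 0.000643).

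None of the 6 macrophage and leukocyte genes passed the test of the difference between the Activin A and hairpin effects. Their differences ran from -0.37 ± 0.26 for C3ar1 to 0.25 ± 0.44 for C5ar1, 0 of 6 had an unadjusted p under 0.05 in edgeR, and DESeq2 and limma also called 0. The standard errors, from 0.16 to 0.44, leave room for differences of that order.

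Genes of both systems outside the 44 were taken from lists set beside them. Of 30 further complement genes 25 were tested on the diet, where 6 rose (Itgax, Itgb2, Cd93, Vsig4, Colec11 and Itgam) and 4 fell, among them Vtn and C1rl. The largest was Itgax, a chain of complement receptor 4, at 3.53 ± 0.29 (edgeR adjusted p = 8.25e-05). Under Activin A 3 of 26 fell (Itgax, Itgb2 and Cd93) and 1, Fcna, the gene of the lectin ficolin A, rose by 0.62 ± 0.15 (edgeR adjusted p = 0.0447). Under the hairpin 9 of 26 fell, with Itgax at -2.47 ± 0.23, Itgb2 at -1.08 ± 0.16 and C4a at -1.03 ± 0.16, and 3 rose.

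Of 34 further coagulation and fibrinolysis genes 29 were tested on the diet, where 8 rose and 4 fell (Hgfac, Cpb2, Habp2 and Proz). F2rl1, the gene of a protease-activated receptor, rose by 3.94 ± 0.77 (edgeR adjusted p = 0.00639). That value rests on very few counts, with F2rl1 at 0, 0.149 and 0.069 CPM in chow GFP libraries. In NASH GFP libraries F2rl1 stood at 1.10, 1.25 and 1.02 CPM. Under Activin A 7 of 30 fell, among them the plasminogen activators Plat (-2.77 ± 0.43) and Plau (-2.06 ± 0.37), and 1, Serpina5, rose. Under the hairpin 3 of 28 rose and 6 fell, with Fgl1, a fibrinogen-like hepatocyte gene, at 0.97 ± 0.07 (edgeR adjusted p = 1.62e-05). The median log2 fold change of the complement list was -0.13, -0.07 and -0.20 in the 3 comparisons, and that of the coagulation list -0.15, -0.29 and 0.01.

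Of 14 hepatocyte transcription factor genes, 1 rose (Cebpd) and 2 fell (Nr5a2 and Foxa1) on the diet and 0 passed under Activin A in edgeR, where 5 had an unadjusted p under 0.05. Under the hairpin 5 rose (Hnf4a, Foxa1, Foxa3, Stat3 and Nr5a2) and 6 fell (Cebpa, Cebpd, Cebpb, Onecut1, Nr1h4 and Prox1), with Hnf4a at 0.78 ± 0.09 (edgeR adjusted p = 0.000322). A promoter window in RefSeq's table was found for 34 of the 44 genes, of which 28 were hepatocyte genes and 5 macrophage or leukocyte genes. The C/EBP motif was in 7 of the 28 (C3, C9, F11, F9, Fga, Fgb and Klkb1), against 9.56% of all windows. The STAT motif was in 6 (C8a, F9, Fga, Fgb, Masp2 and Pros1), against 7.02%, and the HNF1 motif in 3 (C4bp, F13b and Hc), against 0.371%. The HNF4 motif (CAAAGTCCA, in 0.384% of all windows) and the PU.1 motif were in 0 of the 28. Both strands were searched and no 2 matches overlapped. Not in the table were C1qa, C2, C4b, Cfb, Cfi, Kng1, Masp1, Plg, Proc and Serping1.

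Per gene length the 44 genes covered a wide range of levels. In chow GFP libraries the mean FPKM was 1771 ± 214 (SD, n = 3) for Fgg, 1678 ± 161 for Fga, 1355 ± 283 for C3 and 1316 ± 142 for Fgb, neighbours that lay within their spread. Kng1 (641 ± 71.1) and Plg (621 ± 32.4) followed, and C3ar1 (0.382 ± 0.0779) and C5ar1 (0.316 ± 0.136) closed the order. C8b was at rank 21 of 44 in chow GFP libraries with 218 ± 25.5 FPKM and at rank 33 in NASH GFP libraries with 36.02 ± 17.4 FPKM. C1qb was at rank 35 with 22.05 ± 3.000 FPKM in chow GFP and at rank 25 with 76.8 ± 8.60 FPKM in NASH GFP libraries. On this scale C8b exceeded C1qb in chow GFP libraries and C1qb exceeded C8b in NASH GFP libraries, in each case with no overlap of mean and SD. In hairpin libraries C8b stood at 81.2 ± 6.26 FPKM and C1qb at 35.9 ± 4.87 FPKM, again with C8b the higher.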

How the data were processed

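RNA had been extracted with Qiagen RNeasy columns and made into libraries with a stranded poly(A) TruSeq kit, per the labels' protocols. Per the file headers, the deposited tables hold raw gene counts and FPKM for each library. The genome build was GRCm38 (mm10), per the submitters' processing notes. No aligner, counter or strand setting was stated in what was used here. Libraries were assigned to groups by their labels, which name only the chow GFP columns directly. The NASH GFP and Activin A columns were matched through the comparisons named in the labels, and the scramble and hairpin columns through their abbreviations. That matching is an inference. A total of 24 other per-sample or mean columns were not used. Replicates differed by more than sampling noise.

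Counts were tested with edgeR 4.0.16 in R 4.3.3 (quasi-likelihood test, TMM scaling, filterByExpr with a minimum count of 10). The Benjamini-Hochberg adjustment ran over all genes tested, and a gene was called at an adjusted p under 0.05. The diet, Activin A and hairpin comparisons were fitted on 6 libraries each (3 against 3), and the scramble and GFP controls and the difference between effects in a fit of the 4 NASH groups. CPM were scaled by TMM over 15 libraries, and FPKM, as deposited, were used to compare genes. Values after ± are standard errors for log2 values and SD for FPKM. The edgeR script was tested on simulated data. Alternatives were DESeq2 1.42.0, limma 3.58.1 (voom), other scalings, no filter, 1 fit of 5 groups, a replicate block and leaving out each library. Promoter windows came from RefSeq (GRCm38.p6), with windows on chromosome 18 left out. The members and all gene lists were chosen with earlier results of these data known. Values in every library were given for genes fixed by role and for the 8 called members with the smallest p in each comparison. Genes outside the 44 were named with values by the 3 smallest p in each list and comparison, except some that are not reported here. The adipocyte marker levels, the gene pairs set as ratios and the promoters printed were chosen after values were seen, and other names complete a count. Counts carry no molecular identifiers, and the standard errors and p-values of edgeR include the spread between libraries.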

Additional observations from a re-analysis of the deposited data

How the results depend on the processing

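Of the 44 genes, the number called under Activin A was 6, and 10 by the Wald test of DESeq2, with a range of 5 to 10 when single libraries were left out. Under the hairpin the number was 25, and 13 when all 5 groups shared 1 fit, with 15 to 26 when single libraries were left out (15 without scramble replicate 3 and 16 without scramble replicate 2). On the diet it was 29, with 20 to 27 when single libraries were left out. With all 5 groups in 1 fit, 32 of the 37 hepatocyte genes fell on the diet and 1 rose. All 6 macrophage and leukocyte genes rose in that fit. Between scramble and GFP the number of members called was 4, and 7 with no filter on low counts, with 0 to 7. For the difference between the Activin A and hairpin effects it was 8, and 15 by DESeq2, with 4 to 14. The causes were not tested. No called value of a member changed sign under any alternative run. Replicate numbers did not pair the libraries: correlations between libraries with the same number ran from -0.198 to 0.0935, and not every library correlated best with its own number. With the replicate block the number of members called was 22 on the diet, 6 under Activin A, 23 under the hairpin, 2 between scramble and GFP and 7 for the difference between effects. Over all genes, 2445 were called on the diet, 1597 with the replicate block and 4500 with all 5 groups in 1 fit. The totals were 806 under Activin A (1253 with no filter and 1258 by DESeq2), 3601 under the hairpin (1880 with all 5 groups in 1 fit) and 668 between scramble and GFP (1170 with no filter and 1270 by DESeq2). Leaving out single libraries gave 1355 to 2233, 248 to 1435, 1923 to 3496, 52 to 2233 and, for the difference between effects (1051), 607 to 1291. Scaled to library totals alone, 56.2% of genes called between scramble and GFP were higher, against 41.5%. With 3 libraries a group, the fibrinogen values on the diet turned on NASH GFP replicates 1 and 2, and the receptors rested on few counts per library.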
